A study of Mus musculus with 4 samples.

Results

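The genes described here carry the secretory pathway from the ribosome to the Golgi: signal recognition, translocation into the endoplasmic reticulum (ER), N-glycosylation, folding, and the COPII and COPI vesicle coats with their cargo receptors. They were found with a pattern on gene symbols that uses no measured value, as every gene whose symbol in the array's annotation begins with, or is, one of a fixed set of names (Sec with a digit, Ssr, Spcs, Srp with a digit, Alg with a digit, Pdia, Copa to Copz, Tmed, Stt3, Rpn1, Rpn2, Dad1, Ostc, Ddost, Calr and Canx). The pattern found 83 genes among 18193 genes with a probe set of 1 symbol. Of these, 79 passed the filter on low signals and were tested among 12378 genes. Of the tested members, 5 stand outside these roles. The pattern also caught Sec14l1 to Sec14l4, which encode lipid-binding proteins and share only the first letters of the symbol, and Sec23ip, whose product binds the COPII protein SEC23.

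The study asked which cells the oncogene MN1, a transcriptional cofactor of human myeloid leukemia, can transform. It holds 2 arrays of marrow of mice that had developed MN1 leukemia and 2 arrays of Gr1/Mac1 cells from the marrow of healthy mice. The latter, granulocytes and monocytes positive for Gr1 and CD11b, are called mature cells below. For the leukemias, C57BL/6J mice were given 150 mg/kg of fluorouracil, and their marrow, harvested 4 days later, was grown for 48 hours with human interleukin-6, mouse interleukin-3 and mouse stem cell factor, received MN1 from a GP+ E86 retroviral producer line, and was sorted for GFP. The cells then went into syngeneic mice irradiated with 750 cGy that also received fresh helper marrow, so the leukemic marrow can hold host and helper cells. None of the 4 arrays is labelled as normal immature cells, so leukemia and immaturity cannot be told apart. Each sample is a bulk of cells, so fewer cells of a type and less RNA per cell cannot be told apart. The labels name the arrays of a group as replicates.

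Proteins bound for the cell surface, the granules or the outside of the cell enter the ER while they are made. The signal recognition particle (SRP) brings the ribosome to the SEC61 channel, signal peptidase trims the new chain, and oligosaccharyltransferase attaches a sugar tree that the ALG enzymes build on a lipid carrier. Lectin chaperones and disulfide isomerases fold the chain, COPII coats carry it forward to the Golgi, COPI coats bring escaped proteins back, and p24 (TMED) proteins link cargo to both coats. Myeloid precursors use this route to fill their granules with enzymes, most of which are glycoproteins.

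The values are MAS5 signals, linear brightness of a probe set on an Affymetrix mouse array after the authors' background correction and scaling. Fold changes are differences of log2(signal + 16), leukemic minus mature, so they understate the change of dim genes. Each gene is represented by the brightest of its probe sets, tested with limma, and called at an adjusted p under 0.05, with Benjamini-Hochberg adjustment over all 12378 genes. Trimmed mean signals were 500 on every array, and medians were 85.4 and 80.9 on the leukemic and 59.1 and 74.8 on the mature arrays. The 3′ to 5′ signal ratio of the actin control, a measure of RNA integrity and labelling, was 3.28 and 3.09 in leukemia against 1.32 and 1.39 in mature cells. The geometric mean signal of the hybridization controls was 11918 and 8950 on the leukemic arrays and 4044 and 4168 on the mature arrays (bacterial transcripts spiked into each sample). Monocyte and macrophage markers were called lower in leukemia in 9 of 9 tested genes, with summed signals of 9607 and 7117 against 65717 and 36964 in mature cells. Erythroid markers were called higher in 5 of 6, with sums of 29710 and 41175 against 7626 and 3919. The exception, Alas2, had 1354 and 3152 against 6164 and 2176 (log2 fold change -0.82, not called). It was the largest part of the sum in mature cells. Mast cell and basophil markers were called higher in 6 of 7, with sums of 65414 and 77323 against 11419 and 14740. The exception, Hdc, had 7991 and 8320 against 10202 and 13249 (log2 fold change -0.51, not called). It made up most of the sum in mature cells. Neutrophil markers were called higher in 1 and lower in 5 of 15, and their sums of 554860 and 297780 against 507350 and 393290 overlapped. On this list the granule enzyme genes Mpo, Elane and Prtn3 were not called. Mpo had 36159 and 10510 against 23543 and 13433, and Elane had 4268 and 895 against 5831 and 4352. Prtn3 had 8934 and 2693 against 15214 and 7654. These granule enzyme genes were thus bright in the Gr1/Mac1 arrays too, so the name mature does not say that precursors are absent. Whether the Gr1/Mac1 cells include precursors was not tested. Plasma cells are rich in ER, and a list of their markers summed to 3479 and 3560 in leukemia against 23036 and 8057 in mature cells. In mature cells Ighm was the largest part of the sum, at 14292 and 5515, and Igha had 5805 and 1023. Jchain had 826 and 311 there, but Sdc1 (23.6 and 49.4) and Prdm1 (65.0 and 68.9) were dim. Whether the sum comes from plasma cells or from other B cells was not tested. Of the 11 tested markers 4 were called lower. Another 4 had log2 fold changes above 0, Fkbp11 (1.49), Sdc1 (1.20), Txndc5 (0.86) and Cd79b (0.23), none called. The part of RNA quality, array brightness and cell mixture in the results that follow was not tested.

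Of the 79 tested members, 24 were called higher and 6 lower in MN1 leukemia, and 49 were not called. Across all genes tested, 43.4% were called in either direction, 27.5% higher and 15.9% lower, against 30.4% higher and 7.59% lower among the members. The members' median log2 fold change was 0.42, against 0.28 for all genes. As a whole the set therefore lay near the background, and the differences lay within it. The 46 genes of entry, glycosylation and folding had 20 members called higher (43.5%) and 0 lower, with a median of 0.77. The 28 tested genes of vesicle transport had 3 called higher (10.7%) and 5 lower (17.9%), with a median of -0.05. This division into 2 blocks was made after the values were seen, and the difference between the blocks was not tested. Without leukemic replicate 1 the counts of higher and lower calls fell to 12 and 4, and without leukemic replicate 2 to 10 and 2, while the share of all genes called fell as well, to 3429 and 2575 genes.

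**Figure D1:**
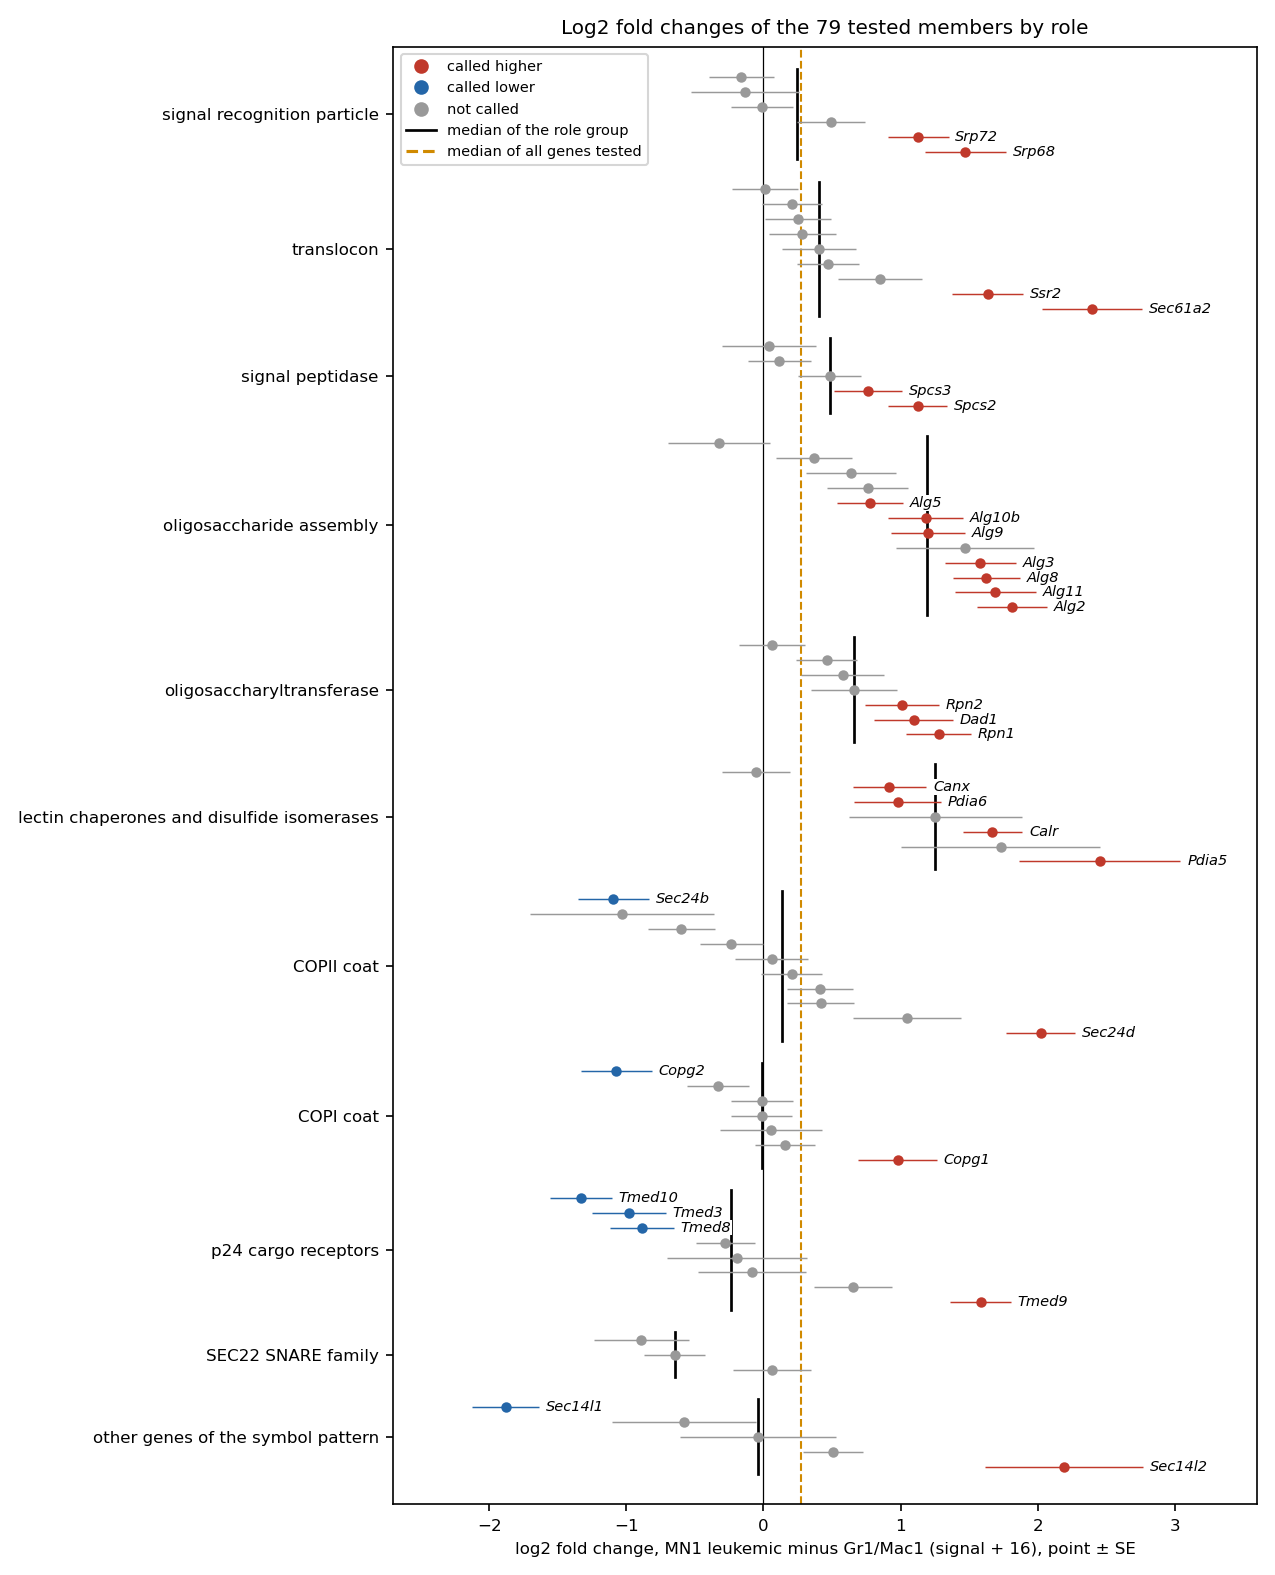
Log2 fold change (MN1 leukemic minus Gr1/Mac1, x axis) with its SE for each of the 79 tested members, in rows by role. Red points are the 24 genes called higher, blue points the 6 called lower and grey points the 49 not called, a black bar is the median of a role group and the dashed line the all-gene median of 0.28. In the upper 6 groups 20 points are red, 26 are grey and none is blue. The blue points lie in COPII, COPI, the p24 family and the genes caught only by name.

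In the SRP, 2 of 6 tested subunits were higher in leukemia (33.3%, all genes 27.5%) and none lower, with a group median of 0.24. Srp68 and Srp72 encode the large protein pair that bind each other on the particle's RNA. Srp68 had signals of 3161 and 3217 in leukemia against 1479 and 876 in mature cells, a log2 fold change of 1.47 (SE 0.29, adjusted p = 0.0072). Srp72 had 4925 and 5634 in leukemia against 2461 and 2341 in mature cells, a log2 fold change of 1.13 (SE 0.22, adjusted p = 0.0066). The groups did not overlap for either gene. Srp14, which with Srp9 forms the part of the particle that halts elongation, was the brightest subunit not called. Its signals of 8187 and 9848 in leukemia and 9957 and 10134 in mature cells gave a log2 fold change of -0.16 (SE 0.24, adjusted p = 0.62). Srp9 had -0.01, Srp19 had 0.49 and Srp54b had -0.13, none called. Srp54b, a copy of the subunit that binds the signal peptide, was dim. Brighter probe sets shared by Srp54a, Srp54b and Srp54c name no single gene and were not counted. One of them had 3225 and 3070 against 1301 and 1705 and was called higher (log2 fold change 1.07, adjusted p = 0.016), and another had a log2 fold change of 0.44, not called. Without leukemic replicate 2, neither large subunit passed (adjusted p = 0.0540 for Srp68 and 0.0747 for Srp72).

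The translocon had 2 of 9 members higher (22.2%, all genes 27.5%) and none lower, and its median was 0.40. Sec61a2 encodes the minor form of the channel's alpha subunit. Its signals were 408 and 532 in leukemia against 91.1 and 62.2 in mature cells, a log2 fold change of 2.40 (SE 0.36, adjusted p = 0.0026). Ssr2, a subunit of the translocon-associated TRAP complex, had 2180 and 2450 in leukemia against 867 and 619 in mature cells, a log2 fold change of 1.64 (SE 0.26, adjusted p = 0.0031). Both genes stayed called with any 1 array left out. The main channel gene Sec61a1 had 8032 and 7234 in leukemia and 6997 and 4731 in mature cells, with a log2 fold change of 0.40 that did not pass (adjusted p = 0.27). Of its 6 probe sets, 1 was called higher, at 1942 and 1776 against 793 and 769 (log2 fold change 1.23, adjusted p = 0.0078). Sec61b, the brightest member not called, had 11434 and 10468 against 12054 and 9776, so its groups overlapped (log2 fold change 0.01, SE 0.24, adjusted p = 0.98). The remaining TRAP genes had log2 fold changes of 0.28 for Ssr1, 0.47 for Ssr3 and 0.85 for Ssr4, and the channel partners Sec62 and Sec63 had 0.21 and 0.25, none called. Thus 1 of the 4 TRAP genes was called.

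Signal peptidase had 2 of 5 members higher (40%, all genes 27.5%) and none lower, with a median of 0.48. Spcs2, an accessory subunit, had signals of 8146 and 8164 in leukemia against 3681 and 3785 in mature cells, a log2 fold change of 1.12 (SE 0.22, adjusted p = 0.0062). The 2 arrays of each group lay close together. Spcs3, which the enzyme needs for activity, had 9567 and 7718 against 5607 and 4568, a log2 fold change of 0.76 (SE 0.25, adjusted p = 0.043). Its call was kept in 8 of 18 alternative settings, which include those with 1 array left out. Spcs1 was the brightest member not called, at 10584 and 11362 against 9636 and 10640 (log2 fold change 0.11, SE 0.23, adjusted p = 0.72). The catalytic subunits Sec11a and Sec11c had 0.48 and 0.04, and the mature arrays lay far apart for Sec11c, at 6250 and 12279. None of the 5 was called with every array at the same median. Spcs2 missed the threshold without leukemic replicate 2 (adjusted p = 0.0552). Spcs3 had an adjusted p of 0.245 and 0.105 when leukemic replicates 1 and 2 were left out, and of 0.0905 without mature replicate 2.

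The ALG enzymes, which build the sugar tree on dolichol, had 7 of 12 members higher (58.3%, all genes 27.5%) and none lower. The group's median was 1.19. All but Alg12 lay above the all-gene median. Alg2 adds the first branching mannoses on the cytosolic side of the membrane. It had signals of 1138 and 1251 in leukemia against 310 and 348 in mature cells, a log2 fold change of 1.81 (SE 0.25, adjusted p = 0.0020). Alg11, which extends the same arm before the tree is flipped into the lumen, had 673 and 583 against 164 and 205, a log2 fold change of 1.69 (SE 0.30, adjusted p = 0.0043). Alg8, a glucosyltransferase of the lumenal side, had 1519 and 1351 against 472 and 435, a log2 fold change of 1.63 (SE 0.24, adjusted p = 0.0025). In each of these genes the lowest leukemic array was well above the highest mature array.

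Alg3, which adds the first lumenal mannose, had signals of 858 and 985 in leukemia and 305 and 289 in mature cells (log2 fold change 1.58, SE 0.26, adjusted p = 0.0034). The mannosyltransferase Alg9 rose by 1.20, the glucosyltransferase Alg10b, which adds the last glucose, by 1.18, and Alg5, which makes the glucose donor, by 0.78. Steps on both sides of the ER membrane were thus among the higher calls. Alg6, which adds the first glucose, had the fold change closest to a call, 1.47 with an adjusted p of 0.051, at signals of 191 and 164 against 31.6 and 85.7. Alg1 had 0.76, Alg14 had 0.64 and Alg13 had 0.37, and Alg12, at signals of 112 and 127 against 141 and 167, had -0.32, none called. Alg2 and Alg8 stayed called with any 1 array left out. Without leukemic replicate 1 the calls of Alg11 (adjusted p = 0.0533), Alg9 (0.0704), Alg10b (0.0783) and Alg5 (0.216) were lost. Without leukemic replicate 2 those of Alg3 (0.0568), Alg9 (0.122), Alg10b (0.114) and Alg5 (0.165) were lost, as was Alg5 without mature replicate 2 (0.0672). In either case 3 of 12 genes were called.

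Oligosaccharyltransferase, which moves the tree onto the growing protein, had 3 of 7 members higher (42.9%, all genes 27.5%) and none lower. The group's median was 0.66. Rpn1 (ribophorin I), a subunit that holds some substrates near the active site, had signals of 13401 and 11169 in leukemia against 5324 and 4756 in mature cells, a log2 fold change of 1.28 (SE 0.24, adjusted p = 0.0052). Dad1, a small core subunit, had 3977 and 4328 against 2471 and 1511, a log2 fold change of 1.10 (SE 0.29, adjusted p = 0.020). Rpn2 (ribophorin II) had 3775 and 3028 against 2002 and 1397, a log2 fold change of 1.01 (SE 0.27, adjusted p = 0.022). These are subunits that both forms of the enzyme share. The alternative catalytic subunits were not called. Stt3a, which works at the translocon, had a log2 fold change of 0.66, and Stt3b, which can act later, had 10339 and 10539 against 7480 and 7680, a log2 fold change of 0.46 (SE 0.22, adjusted p = 0.14). The core subunit Ddost had 0.58 and Ostc, a subunit of the STT3A form, had 0.06. The groups did not overlap for Stt3a, Stt3b or Ddost. Rpn1 stayed called with any 1 array left out, but none of the 7 genes was called with every array at the same median. Past the filter, Rpn1, Dad1 and Rpn2 had only probe sets that can match several transcripts. Without such probe sets only Stt3a, Stt3b, Ddost and Ostc could be read, so that setting does not test the 3 calls. The adjusted p of Dad1 was 0.0800 without leukemic replicate 1 and 0.123 without leukemic replicate 2, and that of Rpn2 was 0.155, 0.0741 and, without mature replicate 2, 0.0531.

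The lectin chaperones and disulfide isomerases had 4 of 7 members higher (57.1%, all genes 27.5%) and none lower, with a median of 1.25. Calr (calreticulin), a soluble lectin chaperone and calcium store of the ER, had signals of 9818 and 9365 in leukemia against 2926 and 3081 in mature cells, a log2 fold change of 1.67 (SE 0.22, adjusted p = 0.0016). Canx (calnexin), its membrane-bound relative, had 14665 and 14309 against 6371 and 9191, a log2 fold change of 0.92 (SE 0.27, adjusted p = 0.029). Both were read by 3 probe sets, and all 3 were called higher in each gene. Pdia5, a disulfide isomerase family member, had 366 and 185 against 63.5 and 16.2, a log2 fold change of 2.45 (SE 0.59, adjusted p = 0.014), and both groups were widely spread. Its mature mean of 39.8 lay under the filter's limit of 47.6, so Pdia5 passed the filter through its leukemic signals. Pdia6, another isomerase, had 3827 and 3114 against 2317 and 1311, a log2 fold change of 0.98 (SE 0.32, adjusted p = 0.043). The call of Pdia6 was kept in 9 of 18 alternative settings.

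Pdia3, the isomerase that works with both lectin chaperones, did not follow them. Its signals were 2317 and 2651 in leukemia and 3004 and 2208 in mature cells, which overlap (log2 fold change -0.06, SE 0.25, adjusted p = 0.88). Pdia4 had 1.73 and Pdia2 had 1.25, both dim and not called. Calr stayed called with any 1 array left out. The adjusted p was 0.107 for Pdia5 without leukemic replicate 1. For Pdia6 it was 0.208 without leukemic replicate 1, 0.113 without leukemic replicate 2 and 0.0995 without mature replicate 2. For Canx it was 0.117 and 0.118 without either leukemic replicate and 0.0578 without mature replicate 1.

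**Figure D2:**
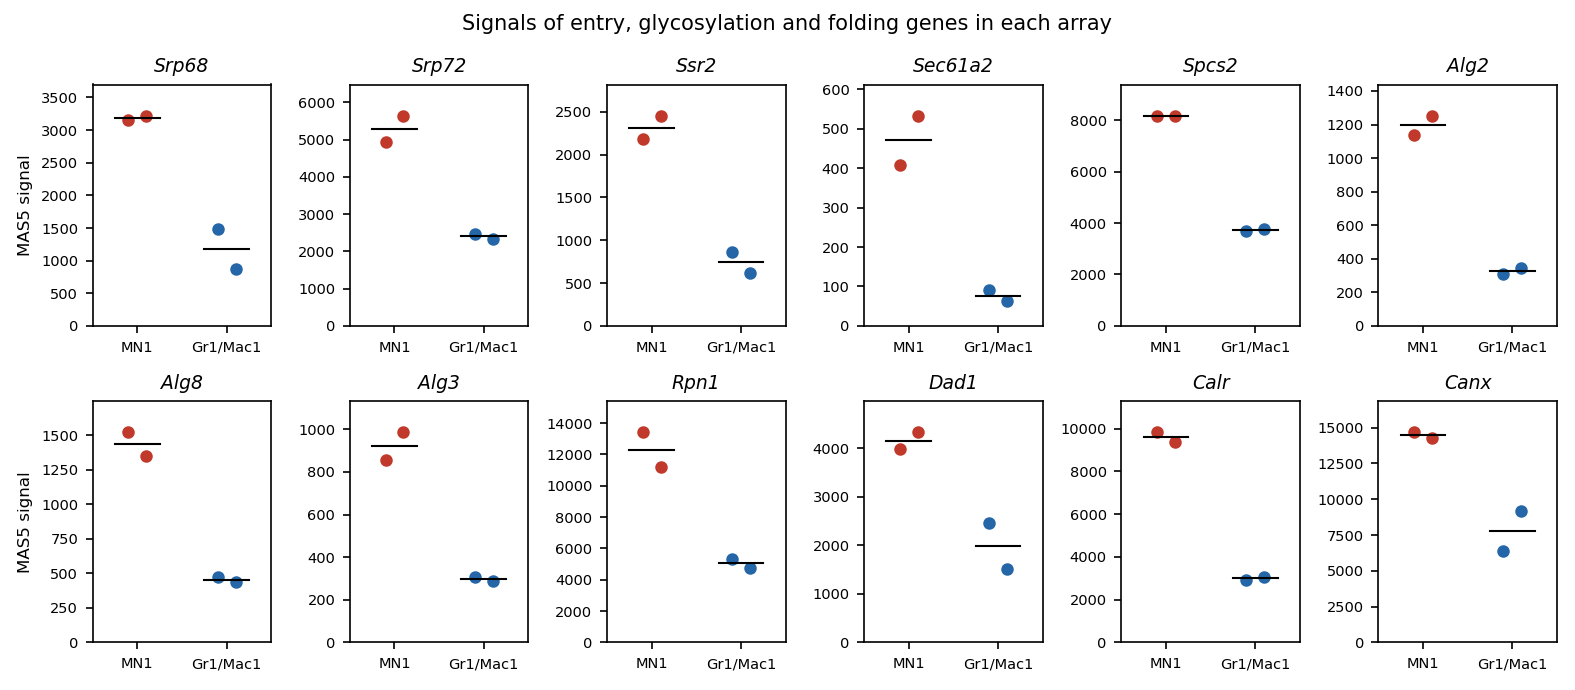
MAS5 signal (y axis, from 0) of 12 members called higher, in the 2 MN1 leukemic (red) and 2 Gr1/Mac1 (blue) arrays, with black bars at the group means. In every panel both red points lie above both blue points, and the mature arrays are farther apart for Srp68, Dad1 and Canx than for Alg3, Spcs2 and Calr.

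Genes of ER folding are known to carry promoter elements read by the factors of the unfolded protein response, and the promoters were searched for these letters. The ER stress response element (ERSE) was searched as CCAAT and CCACG with 9 bases between them, on either strand, and the unfolded protein response element (UPRE) as TGACGTGG on either strand. The reverse of the second motif holds the letters CCACG. RefSeq promoters of assembly GRCm38.p6, from 250 bases before to 50 after a gene's start, were matched for 70 of the 83 members. ERSE letters were in 4 of these 70 (5.71%) and in 37 of 27025 genes with a promoter (0.137%). The 4 were Calr, Canx and Pdia6, all called higher, and Alg12, not called. Of all 70 members with a promoter, 19 were called higher, and a link between motif and call was not tested. UPRE letters were in 5 of 70 (7.14%) and in 193 genes (0.714%), namely in Sec24d, called higher, and in Copb1, Copb2, Sec16b and Sec23a, not called. CCAAT alone was in 36 of 70 members (51.4%) and in 41.1% of genes. Motif genes that were not called are not shown. The 250 bases before the start are given for the 4 motif genes called higher, a choice made with their calls known. Each is written 5′ to 3′ along the gene's strand with the motif in capitals.
Calr (chr8:84846932-84847181, minus strand, ERSE): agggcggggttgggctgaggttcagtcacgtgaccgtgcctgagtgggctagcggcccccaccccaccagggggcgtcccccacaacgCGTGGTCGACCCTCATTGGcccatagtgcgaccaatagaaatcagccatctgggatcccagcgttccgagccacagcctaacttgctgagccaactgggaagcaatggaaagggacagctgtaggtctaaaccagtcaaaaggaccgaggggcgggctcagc
Canx (chr11:50325674-50325923, minus strand, ERSE): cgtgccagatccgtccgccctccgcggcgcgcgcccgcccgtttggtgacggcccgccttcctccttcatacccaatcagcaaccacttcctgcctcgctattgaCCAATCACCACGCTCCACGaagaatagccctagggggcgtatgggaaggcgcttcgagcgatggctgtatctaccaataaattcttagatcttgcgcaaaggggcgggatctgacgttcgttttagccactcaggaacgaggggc
Pdia6 (chr12:17266339-17266588, plus strand, ERSE): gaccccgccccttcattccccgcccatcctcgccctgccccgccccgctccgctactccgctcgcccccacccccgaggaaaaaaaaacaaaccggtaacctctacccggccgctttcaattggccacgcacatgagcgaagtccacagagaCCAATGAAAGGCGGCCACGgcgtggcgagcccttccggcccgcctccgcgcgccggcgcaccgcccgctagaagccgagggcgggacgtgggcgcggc
Sec24d (chr3:123267246-123267495, plus strand, UPRE): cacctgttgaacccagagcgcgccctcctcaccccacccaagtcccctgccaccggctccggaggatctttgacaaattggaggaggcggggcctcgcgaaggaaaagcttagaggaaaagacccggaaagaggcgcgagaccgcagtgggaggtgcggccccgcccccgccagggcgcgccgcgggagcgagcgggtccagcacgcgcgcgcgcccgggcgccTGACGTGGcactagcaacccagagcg
Counted from the start, with negative numbers before it, the motif began at -162 in Calr, where it lies on the opposite strand, at -145 in Canx, at -98 in Pdia6 and at -26 in Sec24d. A match of letters is a description of the sequence, and binding was not measured.

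The COPII coat, which buds cargo from the ER, had 1 of 10 members higher, 1 lower and a median of 0.13. Each share was 10%, against 27.5% higher and 15.9% lower among all genes tested. The opposite calls fell on paralogs of the cargo-binding subunit SEC24. Sec24d had signals of 1437 and 1351 in leukemia against 361 and 304 in mature cells, a log2 fold change of 2.02 (SE 0.25, adjusted p = 0.0014). Sec24b had 518 and 421 against 954 and 1081, a log2 fold change of -1.09 (SE 0.26, adjusted p = 0.014). Sec24d was thus high in leukemia and Sec24b high in mature cells, with no overlap in either. Sec24c, the closest relative of Sec24d and the brightest member not called, had 4984 and 4811 against 6304 and 5264 (log2 fold change -0.23, SE 0.23, adjusted p = 0.45). Sec24a, the closest relative of Sec24b, had 372 and 524 against 148 and 282, a log2 fold change of 1.05 that did not pass (adjusted p = 0.068). The inner coat genes Sec23a and Sec23b had 0.42 and 0.20, and the outer coat genes Sec31a and Sec13 had 0.41 and 0.06. The organizers of exit sites Sec16a and Sec16b had -0.60 and -1.03, none of these called. Sec24d stayed called with any 1 array left out, and Sec24b had an adjusted p of 0.0613 without leukemic replicate 1 and 0.141 without leukemic replicate 2.

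The COPI coat, which returns proteins from the Golgi, had 1 of 7 tested members higher and 1 lower, with a median of -0.01. Each share was 14.3%, against 27.5% higher and 15.9% lower among all genes tested. Here too the opposite calls were on paralogs, those of the gamma subunit. Copg1 had signals of 2153 and 2021 in leukemia against 1330 and 829 in mature cells, a log2 fold change of 0.98 (SE 0.29, adjusted p = 0.030). Copg2 had 927 and 821 against 1582 and 2167, a log2 fold change of -1.07 (SE 0.26, adjusted p = 0.015). Copa, the alpha subunit, had 7185 and 6509 against 6833 and 6960 (log2 fold change -0.01, SE 0.22, adjusted p = 0.97), Copb1 had -0.01 and Cope had 0.06. The probe sets of Copb2 disagreed. The one used here had 2199 and 2116 against 1957 and 1908 (log2 fold change 0.16), and the other had 3299 and 2722 against 1172 and 872, a log2 fold change of 1.55 that passed when each probe set was tested by itself (adjusted p = 0.0051). Under quantile normalization Copb2 was called higher, with a log2 fold change of 1.53. The zeta subunit Copz1 had -0.33, and its paralog Copz2 was below the filter at signals of 10.8 and 45.4 against 3.29 and 17.6. The second probe set of Copg1 gave a log2 fold change of 0.18, not called, and the call of Copg1 was kept in 10 of 18 alternative settings. The adjusted p of Copg1 was 0.155, 0.137 and 0.0557 without leukemic replicate 1, leukemic replicate 2 and mature replicate 2, and that of Copg2 was 0.0693 and 0.122 without either leukemic replicate.

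The p24 family, receptors that cycle between ER and Golgi, had 1 of 8 tested members higher and 3 lower, with a median of -0.24. The shares were 12.5% higher and 37.5% lower, against 27.5% and 15.9% among all genes tested. Tmed9 had signals of 4135 and 4658 in leukemia against 1426 and 1483 in mature cells, a log2 fold change of 1.58 (SE 0.22, adjusted p = 0.0020). Tmed10 had 4530 and 4149 against 10616 and 11254, a log2 fold change of -1.33 (SE 0.22, adjusted p = 0.0036). Tmed3 had 4425 and 3005 against 7734 and 6722, a log2 fold change of -0.98 (SE 0.27, adjusted p = 0.024). Thus Tmed9 was high in leukemia, and Tmed10 and Tmed3 were high in mature cells. Tmed8 had 1246 and 1345 against 2160 and 2684, a log2 fold change of -0.89 (SE 0.23, adjusted p = 0.021). Tmed7, the brightest member not called, had 3152 and 3045 against 2138 and 5026 and overlapped (log2 fold change -0.08, SE 0.39, adjusted p = 0.89). Tmed4 had 0.65, Tmed5 had -0.28 and Tmed2, read by a dim probe set, had -0.19, none called. The 3 brightest probe sets shared by Tmed2 and Gm10698 gave log2 fold changes of 0.69, 0.50 and 0.67, none called.

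The call of Tmed10 is uncertain, because 4 probe sets shared with its pseudogene Tmed10-ps gave log2 fold changes of -0.26, 1.00, 1.22 and 0.92, none called. The second probe set of Tmed9 gave 0.32, not called. Tmed9 and Tmed10 stayed called with any 1 array left out. The adjusted p of Tmed8 was 0.142 and 0.118 without leukemic replicates 1 and 2, and that of Tmed3 was 0.188 without leukemic replicate 2 and 0.0657 without mature replicate 1. Tmed6 and Tmed11 were below the filter. Tmed6 had signals of 1.37 and 1.54 in leukemia and 22.6 and 27.5 in mature cells, and Tmed11 had 16.9 and 3.08 against 36.2 and 29.2.

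**Figure D3:**
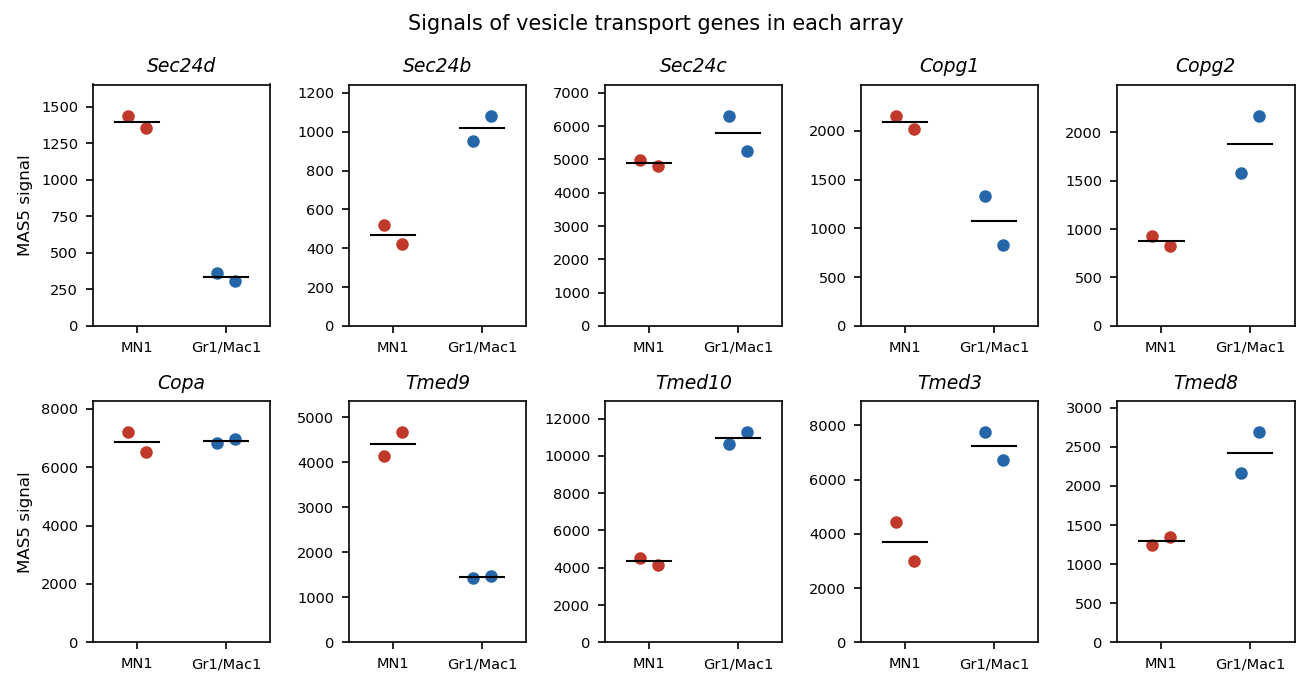
MAS5 signal (y axis, from 0) of 10 vesicle transport genes in the 2 MN1 leukemic (red) and 2 Gr1/Mac1 (blue) arrays, with black bars at the group means. Red points are higher for Sec24d, Copg1 and Tmed9, blue points are higher for Sec24b, Copg2, Tmed10, Tmed3 and Tmed8, and Copa is level.

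Ratios of paralogs within an array leave out the scaling of the arrays, apart from the added 16. The pairs were taken from the genes already called in opposite directions, so their ratios are a description with no test. The log2 ratio of Sec24d to Sec24b was 1.44 and 1.65 in leukemia against -1.36 and -1.78 in mature cells, a difference of 3.12 or 8.67-fold. That of Copg1 to Copg2 was 1.20 and 1.28 against -0.25 and -1.37, a difference of 2.05 or 4.14-fold. That of Tmed9 to Tmed10 was -0.13 and 0.17 against -2.88 and -2.91, a difference of 2.91 or 7.54-fold. Each gene was read by 1 probe set here. The second probe sets of Tmed9, Copg1 and Sec24b gave log2 fold changes of 0.32, 0.18 and -1.24, none called. Those that Tmed10 shares with its pseudogene gave -0.26, 1.00, 1.22 and 0.92, so the size of the Tmed9 to Tmed10 difference depends on the probe sets taken. In each pair the leukemic and mature arrays lay apart, and for Sec24 and Copg the sign of the ratio turned between the groups. Signals of different probe sets differ in binding strength, so the sign of a ratio does not say which transcript was more abundant.

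**Figure D4:**
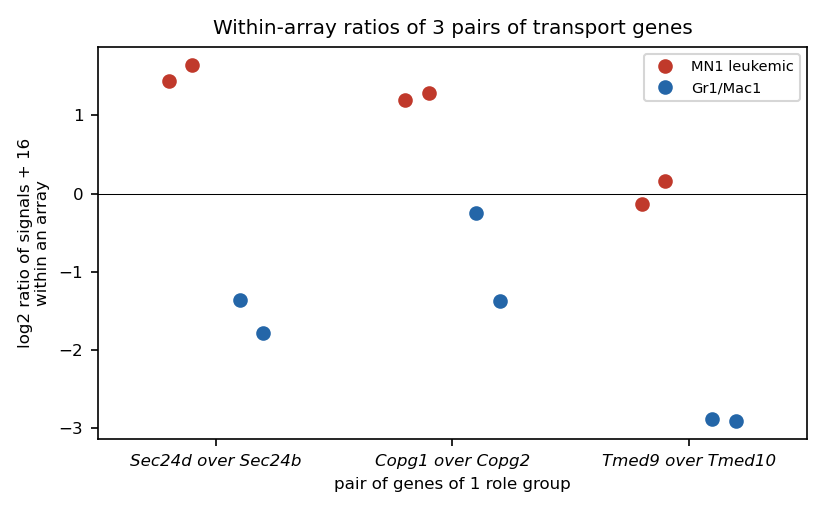
Log2 ratio of the signals of 2 genes of a role group within each array (y axis) for Sec24d over Sec24b, Copg1 over Copg2 and Tmed9 over Tmed10, with MN1 leukemic arrays in red and Gr1/Mac1 arrays in blue. The red points lie above the blue points in all 3 pairs, by 3.12, 2.05 and 2.91 on average.

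None of the SEC22 SNARE genes, whose products fuse vesicles with the ER and Golgi, was called, and their median was -0.65. Sec22b, the SNARE of this route, had signals of 1788 and 1551 in leukemia and 2634 and 2602 in mature cells (log2 fold change -0.65, SE 0.22, adjusted p = 0.052). Its groups did not overlap, and it passed as lower when the arrays were set to the same median. Sec22c had -0.89 and Sec22a had 0.06. Among the genes caught only by name, Sec14l1 was lower in leukemia, at 659 and 841 against 2990 and 2591 (log2 fold change -1.88, SE 0.25, adjusted p = 0.0016). Sec14l2 was higher, at 372 and 437 against 34.5 and 150 (log2 fold change 2.19, SE 0.57, adjusted p = 0.020), but not without leukemic replicate 1 (adjusted p = 0.0691) or 2 (0.108). Sec23ip, the brightest of these not called, had 2743 and 2859 against 1875 and 2063 (log2 fold change 0.51, SE 0.22, adjusted p = 0.10). Sec14l3 and Sec14l4 had -0.58 and -0.04 at dim signals. Sec1, a fucosyltransferase family gene, was below the filter at 80.8 and 7.97 against 18.9 and 5.69.

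Other genes of the same route, from a list that the symbol pattern does not hold, had 10 of 55 tested members higher (18.2%) and 4 lower (7.27%), both shares below those of all genes (27.5% and 15.9%), with a median of 0.22. Srprb, a subunit of the SRP receptor, had 524 and 614 in leukemia against 188 and 20.7 in mature cells, a log2 fold change of 2.75 (SE 0.74, adjusted p = 0.022). Tusc3, an accessory subunit of the STT3B form of oligosaccharyltransferase, had 943 and 988 against 205 and 127, a log2 fold change of 2.46 (SE 0.32, adjusted p = 0.0016). Mogs, the glucosidase that trims the first glucose, had 2867 and 2519 against 925 and 498, a log2 fold change of 1.96 (SE 0.33, adjusted p = 0.0036). Prkcsh, the regulatory subunit of the next glucosidase, rose by 1.06. Others of the list that act in glycosylation were not called, among them Dpagt1, Dpm1, Dpm2, Mpdu1, Dolk, Dolpp1, Ost4, Magt1, Tmem258, Ganab and Uggt1. The cargo receptor Lman1 (1.42), Ergic1 (1.44), Arfgap3 (1.25), Krtcap2 (1.12), Arf4 (0.92) and Sar1b (0.72) were the others higher. Ero1a, the oxidase that feeds disulfide formation, was lower, at 3137 and 2732 against 7614 and 9550 (log2 fold change -1.54, SE 0.24, adjusted p = 0.0028). Tram2, a relative of the translocon protein TRAM, was lower at 167 and 98.9 against 476 and 501 (log2 fold change -1.80, SE 0.35, adjusted p = 0.0066). Preb, the exchange factor that starts COPII budding, was lower at 6196 and 5003 against 12216 and 9549 (log2 fold change -0.95, SE 0.25, adjusted p = 0.022), as was the SNARE Gosr2 (-0.79). Without leukemic replicates 1 and 2 the list had 6 and 5 calls. The adjusted p of Srprb was then 0.0660 and 0.0963, that of Preb 0.0547 and 0.151, and that of Tram2 0.0665 without leukemic replicate 2.

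The unfolded protein response, which senses misfolded chains and raises ER chaperones, had 3 of 21 tested genes higher (14.3%) and 4 lower (19%), with a median of -0.21, against 27.5% higher and 15.9% lower among all genes. Hyou1, an ER chaperone of the HSP70 family, had 2430 and 1872 in leukemia and 406 and 627 in mature cells, a log2 fold change of 2.04 (SE 0.30, adjusted p = 0.0023). Manf rose by 1.19 and Creld2 by 0.95. The sensor kinase Eif2ak3 (PERK) had 1501 and 1017 in leukemia and 4147 and 4157 in mature cells, a log2 fold change of -1.74 (SE 0.26, adjusted p = 0.0026). The call of the transcription factor Xbp1 was lost in 10 of 18 alternatives. It had 7602 and 6246 against 12001 and 11211, a log2 fold change of -0.75 (SE 0.24, adjusted p = 0.040). Edem1 and Atf4 fell by 0.90 and 0.84, and each call was kept in 13 of 18 alternatives. Both were lost with no variance trend and with a minimum of 2-fold. Edem1 was also lost without mature replicate 1, and Atf4 with averaged probe sets. The main chaperones were not called. Hspa5 (BiP) had 16910 and 14420 against 12731 and 8168 (log2 fold change 0.61, adjusted p = 0.13), and Hsp90b1 had a log2 fold change of 0.56 (adjusted p = 0.12). Of these calls, Hyou1 and Eif2ak3 passed with any 1 array left out. Without leukemic replicates 1 and 2 the adjusted p was 0.0885 and 0.0742 for Manf, 0.130 and 0.165 for Creld2, 0.0685 and 0.198 for Edem1, and 0.129 and 0.143 for Atf4. The adjusted p of Xbp1 was 0.0897, 0.239 and 0.0621 without leukemic replicate 1, leukemic replicate 2 and mature replicate 1, and without probe sets that can match several transcripts the log2 fold changes of Hyou1 and Xbp1 were 0.31 and -0.22. The call of Xbp1 also ended with no filter (adjusted p = 0.0667), quantile normalization (0.105) and averaged probe sets (0.0860).

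The counts moved with the scaling of the arrays. With every array at the same median, the all-gene median was -0.03, and 18.2% of genes were called higher and 18.6% lower. Then 12 of 78 members were higher and 8 lower, with a median of 0.10, all 12 among the 24 higher calls given above. The entry, glycosylation and folding genes had 9 of 45 higher and 0 lower, and vesicle transport had 2 higher and 7 lower. With the arrays scaled to the hybridization controls of each group, the all-gene median was -1.02, and 8.29% of genes were called higher and 49.2% lower. Of 78 members 2 were then higher, Sec24d and Sec61a2, and 43 were lower, with a median of -0.90. In that scaling the ALG group had a median of -0.11 and none of its genes was higher. Relative to the all-gene median, the median of the entry, glycosylation and folding genes lay 0.49, 0.48 and 0.48 higher in the deposited, same-median and control scalings, but 0.29 higher in the deposited scaling without mature replicate 2. That of vesicle transport differed from the all-gene median by -0.32, -0.33 and -0.32. Under quantile normalization the differences were 0.77 and -0.12, and the COPII and COPI medians lay 0.08 and 0.13 above the all-gene median. All 6 lower calls held in the same-median and control scalings. Both shift fold changes downward, so they hardly put a lower call to the test. Under quantile normalization 5 of the 6 held, and Tmed3 was left uncalled (adjusted p = 0.0514).

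**Figure D5:**
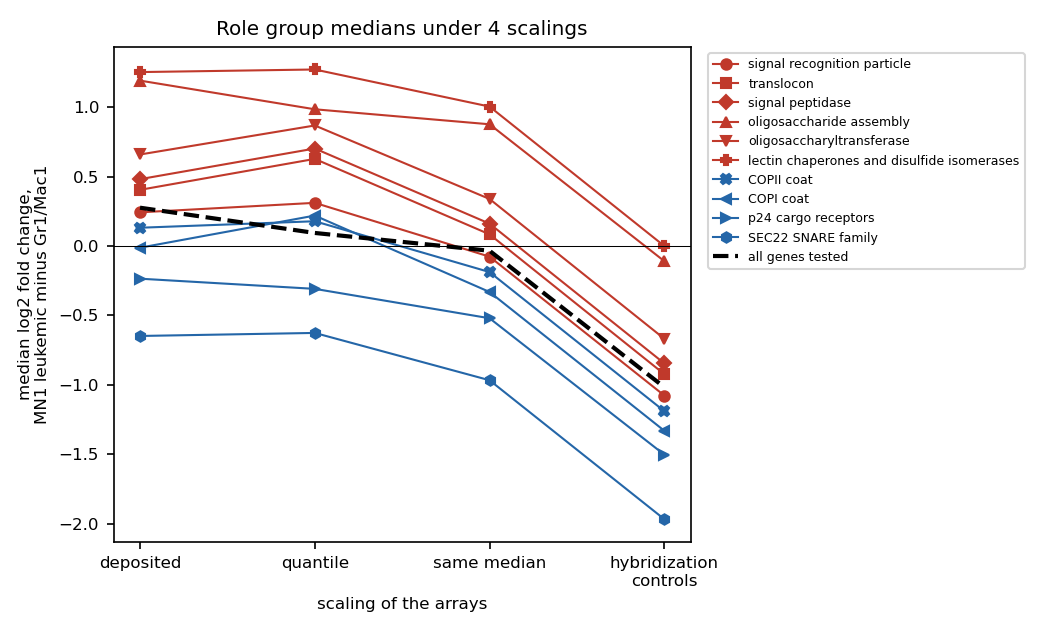
Median log2 fold change of 10 role groups (y axis) under 4 scalings of the arrays (x axis), with entry, glycosylation and folding groups in red, vesicle transport groups in blue and all genes tested as a dashed line. All lines drop together under the hybridization control scaling, where the all-gene median is -1.02, and the ALG and chaperone groups stay at the top in all 4.

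Probe sets of a gene mostly agreed in direction. Of 41 members with several probe sets past the filter, 28 had all of them on the same side of 0. Of the 13 called members among these, 12 had all on the same side and 6 had every probe set called. No member had probe sets called in opposite directions. Of the members not called, Sec61a1, Sec63 and Copb2 had another probe set called higher, and Sec22c had another called lower. With any 1 array left out, 8 of the 24 higher calls held, those of Sec24d, Calr, Alg2, Alg8, Rpn1, Tmed9, Sec61a2 and Ssr2, and 2 of the 6 lower calls, those of Sec14l1 and Tmed10. Leaving out a leukemic array cost more calls than leaving out a mature one: 15 and 12 of the 30 calls held without leukemic replicates 1 and 2, and 28 and 25 without mature replicates 1 and 2.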

How the data were processed

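Affymetrix arrays of total RNA, 2 a group, were read as MAS5 signals. The deposited values are intensities on a linear scale, for which the submitters' processing notes name GCOS 1.3.0 and MAS5, and detection calls are not used here. Symbols came from the platform annotation. Of 45101 probe sets, 64 controls were left out, and 34945 had 1 symbol. Signals were not rescaled and were put on the log2(signal + 16) scale. Probe sets with a mean signal under 47.6, the lowest 40%, were dropped, and each gene was read from the brightest one left. Groups were compared in R 4.3.3 by the two-sided limma 3.58.1 test (lmFit, then eBayes with a trend in the variance), adjusted by Benjamini-Hochberg over 12378 genes. Moderation took the degrees of freedom from 2 to 6.90. The smallest two-sided exact permutation p of 2 against 2 arrays is 0.33, so no such test was run. The number of arrays limits the precision, and p-values measure only the spread between these samples, since the labels do not name the animals. A leave-one-out fit assumes that the lone array varies like the other group.

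The symbol pattern that gives the members, the role groups and the lists were chosen with earlier results of these data known. Named with full values were, in each role group, up to 3 members with the largest change called in the main direction, the largest in the other direction and the brightest not called. From the other lists these were the 3 largest each way and Hspa5, Hsp90b1 and Xbp1, and members named beyond this were chosen after their values were seen. The replicate numbers did not pair the arrays: the differences between replicates 1 and 2 of the groups correlated at -0.030 over genes. Other scalings, filters, probe set rules and variance models were tried. Promoter sequences are RefSeq's, of GRCm38.p6.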

Additional observations from a re-analysis of the deposited data

How the results depend on the processing

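The members' median log2 fold change was 0.42. It was 0.46 with the lowest 60% of probe sets left out, 0.50 after quantile normalization, 0.10 with every array at the same median, -0.90 with scaling to the hybridization controls, and 0.38 to 0.45 with 1 array left out. Of the 24 higher and 6 lower calls, 12 higher calls were left at the same median, and 2 higher and 43 lower were found with control scaling. With 1 array left out there were 10 to 29 higher, 2 to 7 lower and 12 to 36 calls in all. Without probe sets that can match several transcripts 64 members were tested, of which 18 were higher and 3 lower. Of the 30 calls 11 were not kept. Tmed9 was tested and not called, and the others had only such probe sets past the filter, so they could not be tested. They were Alg2, Calr, Copg2, Dad1, Rpn1, Rpn2, Sec14l1, Sec61a2, Ssr2 and Tmed3. In the list outside the pattern 42 genes could be tested in this setting. Role groups with more higher than lower calls numbered 6, 4 at the same median and 0 with control scaling. Calls in the list outside the pattern numbered 14, 40 with control scaling, 8 without probe sets that can match several transcripts and 5 to 19 with 1 array left out. With control scaling 14 of 78 members lay above 0, against 55 of 79. Of the genes called higher, the sign turned for Srp72 (-0.20), Spcs2 (-0.20), Spcs3 (-0.57), Alg9 (-0.097), Alg10b (-0.12), Alg5 (-0.54), Rpn1 (-0.049), Dad1 (-0.23), Rpn2 (-0.31), Pdia6 (-0.34), Canx (-0.41) and Copg1 (-0.34), and in the other lists for Manf (-0.13) and Creld2 (-0.36) among others. Of those not called, it turned and became a lower call for Sec61b (-1.32), Spcs1 (-1.21), Stt3b (-0.87), Sec23ip (-0.82) and Hsp90b1 (-0.77) among others. The replicate block, which the pairing check does not bear out, gave 35 calls of members. The causes were not tested. Signal over background limits Sec14l3, Sec14l4, Tmed2, Pdia2, Pdia4, Srp54b and the 4 members below the filter, among others. It also limits the fold change of the called Pdia5, whose mature signals were dim. Of the 30 calls, 9 were lost with no variance trend, 7 with a minimum of 2-fold, 3 with no filter and 3 with averaged probe sets of a gene, and 0 with the other pseudocounts or the robust variance trend.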
